A study of Homo sapiens with 2 samples.

Results

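The heat shock and chaperone genes described here are the protein-coding genes whose symbol begins with DNAJ, HSPA, HSPB, HSPD, HSPE, HSPH, HSP90 or CCT and a number, without HSPA5, HSP90B1, DNAJB9 and HSPBP1. Membership follows from the name alone and uses no measured value, although the group itself was picked with earlier results of these data known. The members number 81 of 20163 protein-coding genes in GENCODE 44 on hg19. Among them are 3 readthrough genes (DNAJC25-GNG10, HSPB2-C11orf52 and HSPE1-MOB4), which start at or close to the start of another member, and HSPBAP1, which carries the prefix but is named for a protein that binds HSPB1. The study profiled LSD1 (KDM1A), an enzyme that demethylates mono- and dimethylated H3K4 on histones, by chromatin immunoprecipitation and sequencing (ChIP-seq). Both libraries came from the human prostate carcinoma line PC-3M-luc, a luciferase-carrying metastatic descendant of PC-3, with genotype labelled Control, at passages 17-20, grown in EMEM with 10% FBS and glutamine. The LSD1 library (Abcam antibody) and the input library number 1 each, and the authors deposited a single list of 20110 peaks. A peak list holds no expression values, so the cell type label was not checked against marker genes.

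Heat shock proteins are chaperones that hold, fold or disaggregate other proteins. HSP70 proteins (HSPA) bind exposed hydrophobic stretches and are driven by J-domain proteins (DNAJ), which deliver substrates and stimulate their ATPase, and by HSP110 proteins (HSPH1, HSPA4, HSPA4L), which exchange the nucleotide. HSP90 proteins mature kinases and steroid receptors, the CCT ring folds actin and tubulin, HSPD1 and HSPE1 form the mitochondrial folding chamber, and small heat shock proteins (HSPB) hold unfolded proteins without ATP. Part of the network is induced by heat shock factor 1, which binds inverted repeats of GAA, called heat shock elements, while other members are constitutive or restricted to testis or muscle. LSD1 is best known as part of corepressor complexes and is also found at promoters and enhancers of active genes.

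LSD1 peaks lay at the starts of most of these genes. A gene was counted when any base of a peak fell within 1 kb of its canonical transcription start site (TSS), and 64 of the 81 members were counted (79.0%, exact 95% binomial interval 68.5 to 87.3). The same rule counted 11063 of 19881 protein-coding genes with a canonical TSS (55.6%). All 64 members had a peak over the TSS base itself, as did 97.4% of all counted genes. Since some members share a start, the highest-scoring peaks of the 64 were 60 distinct peaks. With 1 library per arm there was no replicate and no p-value was computed. Intervals cover the counting of genes alone. Lack of a listed peak means that nothing passed the threshold the authors set, and LSD1 may still be bound there. Library depth is unknown.

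**Figure D1:**
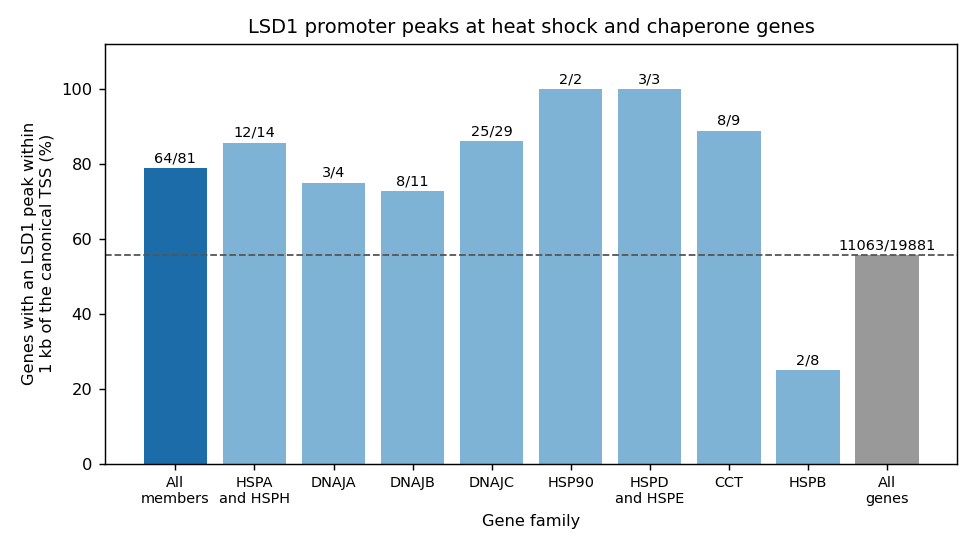
Share of genes with an LSD1 peak within 1 kb of the canonical TSS (percent, vertical axis) for all members, each gene family and all protein-coding genes, with counts above the bars and a dashed line at the 55.6% of all genes. The HSPB family stands at 2 of 8 genes, below the line, and the other families stand above it.

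The count differed by family. HSP90 had peaks at both of its genes, HSPD and HSPE at 3 of 3, CCT at 8 of 9, DNAJC at 25 of 29, HSPA and HSPH at 12 of 14, DNAJA at 3 of 4 and DNAJB at 8 of 11. The small heat shock family HSPB had peaks at 2 of 8. HSPBAP1, left out of this family count, also had a peak. The count for all members was 63 with peaks scoring at least 100 (51.3% of all genes), 56 with the peak midpoint within 1 kb of the TSS (50.2% of all genes), 65 with a window of 5 kb (58.5%) and 64 with any annotated TSS of the gene (58.8%). The 8 members without a midpoint in the window include HSP90AA1, HSP90AB1 and DNAJB1, whose wide peaks cover the TSS but are centred further away.

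Promoter composition differed between the members and other genes. A promoter was called CpG-rich when more than 55% of the 1000 bp around its TSS was G or C and CpG reached over 0.65 of its expected frequency, which held for 57 members (70.4%) and for 56.6% of all genes. Among CpG-rich promoters 53 of 57 members had a peak (93.0%, interval 83.0 to 98.1), against 77.1% of all such genes. Among the other promoters, called CpG-poor here, 11 of 24 members had one (45.8%, interval 25.6 to 67.2), against 27.7%. The share was above that of all genes in both classes. In the CpG-poor class the interval of the members included the value of all genes. Of the 8 HSPB genes, 1 had a CpG-rich promoter, HSPB1, and it had a peak. Among the CpG-poor rest of the family HSPB6 alone had one, while 27.7% of all CpG-poor genes did. That rest includes HSPB2 and its readthrough, which start almost at the same base.

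**Figure D2:**
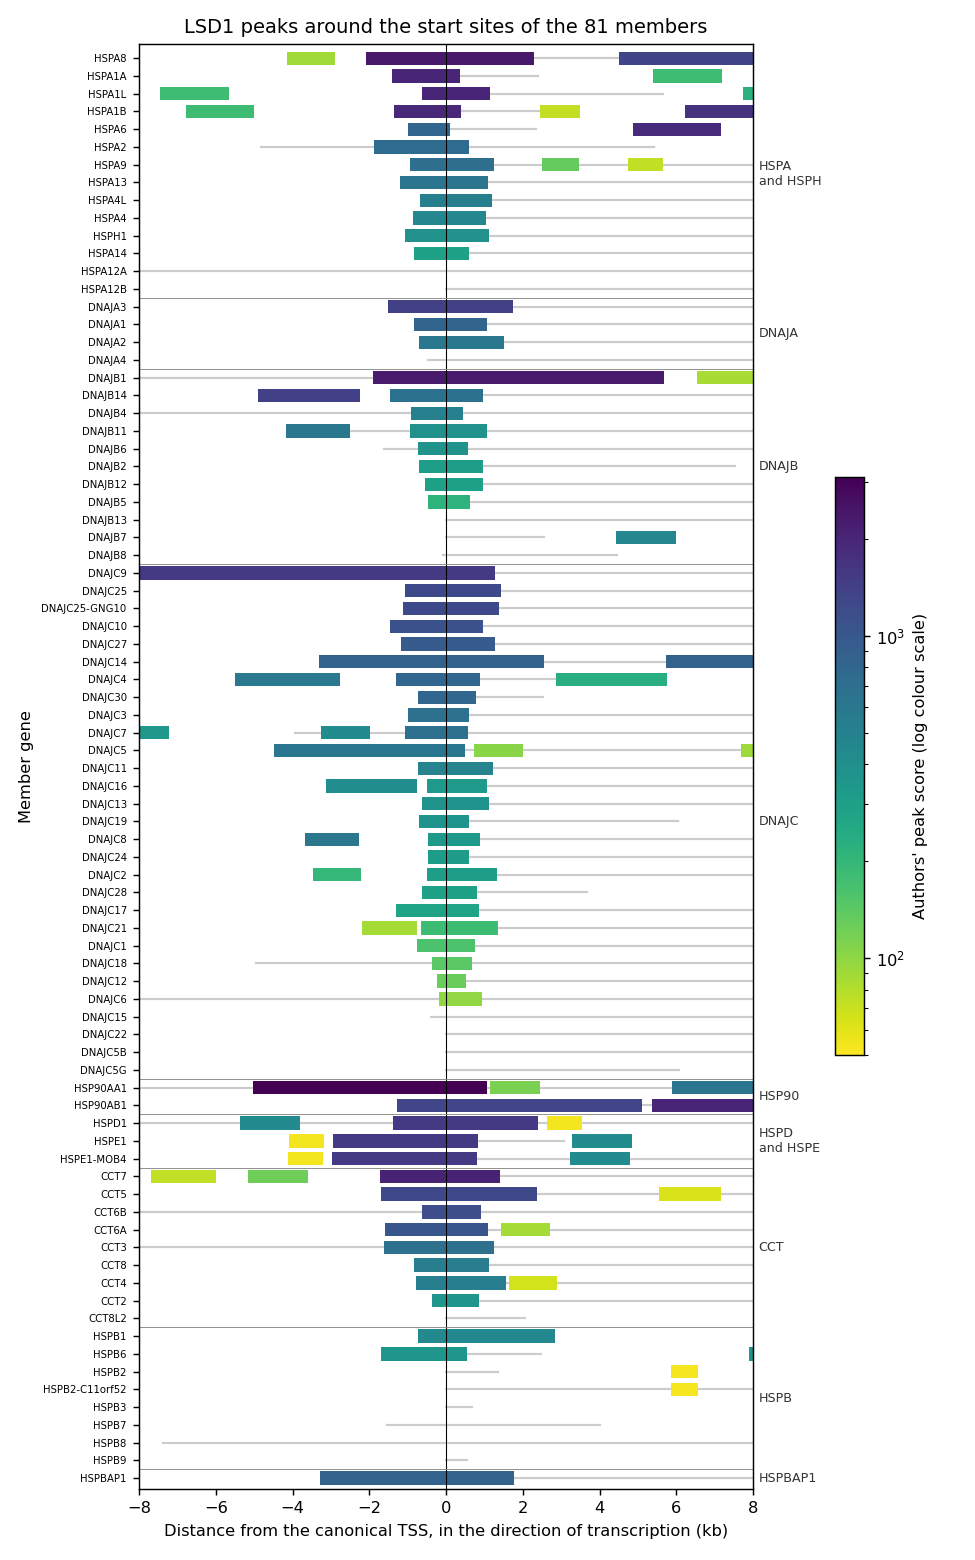
LSD1 peaks within 8 kb of the canonical TSS for all 81 members, grouped by family and ordered by score within each family. Bars are peaks, coloured by the authors' score on a log colour scale, grey lines are the gene records, and the horizontal axis is the distance from the TSS in kb in the direction of transcription. Bars cross the TSS line in the 64 members counted, and 14 members have no peak in the plotted range.

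Several genes of the heat-inducible list had some of the highest scores of the group, while others scored lower. The list also holds HSPA8 and HSP90AB1, which are described below as constitutive. Every member on the list of heat-inducible genes, 12 of 12, had a promoter peak, against 55.6% of all genes. With the genes of the list that are not members the count was 17 of 18, CRYAB having none. The list was chosen with earlier results known, and the count depends on it. It leaves out DNAJA4 and HSPB8, members with heat shock elements in their promoter sequence and no peak. The 12 members all have CpG-rich promoters, a class in which 77.1% of all genes and 93.0% of members had a peak. HSPD1 and HSPE1 were counted through the same peak. Peaks are ranked below by the score in the authors' list, which describes a peak within that list alone. From its values it was read as the peak caller's transformed p, so that a higher score stands for a smaller p. It does not give the size of the enrichment. HSP90AA1, the inducible cytosolic HSP90, had a score of 3100 (chr14:102552314-102558422, 6109 bp), the value at which 206 peaks of the list are tied. HSPA8, the constitutive HSC70 that also uncoats clathrin vesicles, followed at 2369.71 (chr11:122930542-122934926). DNAJB1, the major inducible J-domain partner of HSP70, scored 2306.94 under a 7602 bp peak (chr19:14623521-14631122). HSPA1A and HSPA1B, the inducible HSP70 genes of the MHC class III region, scored 2029.65 (chr6:31781917-31783694) and 1973.2 (chr6:31794144-31795903). These 5 genes, with CCT7 and HSPA1L, hold the highest 7 scores among the members, HSPA1L through the peak it shares with HSPA1A.

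Lower scores were found at other genes of the same list. HSPD1 and HSPE1 shared a peak of 1560.04. HSP90AB1, the constitutive cytosolic HSP90, scored 1300.25 under a 6388 bp peak (chr6:44213569-44219956). DNAJA1, a cytosolic J-domain protein, scored 822.55 (chr9:33024426-33026347), and HSPA6, a strictly inducible HSP70, scored 803.94 (chr1:161493342-161494438). HSPB1, the small heat shock protein HSP27, scored 443.97 (chr7:75931251-75934823), and HSPH1, the inducible HSP110, scored 393.31 (chr13:31734918-31737114). HSPB1 and HSPH1 lie below the median of 464.69 over all genes with a promoter peak.

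Some of these promoters hold heat shock elements in the reference sequence under the peaks. Shown are the 250 bases before the canonical TSS on GRCh37, 5′ to 3′ on the gene's strand, with every match to GAANNTTC or TTCNNGAA in capitals. Of the 12 heat-inducible members, all with a peak, 10 had a match in the window searched, and HSP90AB1 and HSPE1 had none. The HSPD1 matches lie between the HSPD1 and HSPE1 starts, beyond the window searched for HSPE1. Shown are 7 of the 10, without DNAJA1, DNAJB1 and HSPB1, and DNAJA4, a CpG-rich promoter with matches and no peak, for contrast. HSPA1A lies at chr6:31783070-31783319 (plus strand), HSPA1B at chr6:31795265-31795514 (plus), HSPA6 at chr1:161494080-161494329 (plus), HSPA8 at chr11:122932845-122933094 (minus), HSPH1 at chr13:31736042-31736291 (minus), HSP90AA1 at chr14:102553382-102553631 (minus), HSPD1 at chr2:198364565-198364814 (minus) and DNAJA4 at chr15:78556654-78556903 (plus).
HSPA1A: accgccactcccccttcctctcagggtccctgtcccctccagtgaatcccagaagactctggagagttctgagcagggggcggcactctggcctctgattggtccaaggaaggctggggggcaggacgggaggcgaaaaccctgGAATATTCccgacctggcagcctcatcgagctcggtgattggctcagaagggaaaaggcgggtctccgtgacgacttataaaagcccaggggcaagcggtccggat
HSPA1B: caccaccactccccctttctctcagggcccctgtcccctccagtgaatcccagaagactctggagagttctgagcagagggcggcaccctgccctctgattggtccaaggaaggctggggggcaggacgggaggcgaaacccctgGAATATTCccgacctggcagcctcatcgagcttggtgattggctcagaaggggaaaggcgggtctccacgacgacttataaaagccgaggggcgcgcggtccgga
HSPA6: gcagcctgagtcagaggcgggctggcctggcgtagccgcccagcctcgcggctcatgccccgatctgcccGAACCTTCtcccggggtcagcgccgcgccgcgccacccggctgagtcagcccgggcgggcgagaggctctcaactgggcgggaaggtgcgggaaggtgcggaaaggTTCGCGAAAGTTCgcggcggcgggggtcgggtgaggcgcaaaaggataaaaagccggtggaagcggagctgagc
HSPA8: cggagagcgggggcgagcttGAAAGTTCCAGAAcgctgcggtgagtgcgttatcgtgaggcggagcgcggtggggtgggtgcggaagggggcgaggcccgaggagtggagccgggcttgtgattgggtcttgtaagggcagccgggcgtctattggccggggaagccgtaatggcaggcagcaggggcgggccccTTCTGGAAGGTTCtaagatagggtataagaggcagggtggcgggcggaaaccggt
HSPH1: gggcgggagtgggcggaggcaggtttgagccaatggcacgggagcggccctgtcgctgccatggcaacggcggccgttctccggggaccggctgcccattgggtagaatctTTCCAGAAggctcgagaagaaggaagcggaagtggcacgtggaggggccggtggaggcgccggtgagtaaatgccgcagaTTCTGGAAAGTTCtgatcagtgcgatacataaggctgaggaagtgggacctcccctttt
HSP90AA1: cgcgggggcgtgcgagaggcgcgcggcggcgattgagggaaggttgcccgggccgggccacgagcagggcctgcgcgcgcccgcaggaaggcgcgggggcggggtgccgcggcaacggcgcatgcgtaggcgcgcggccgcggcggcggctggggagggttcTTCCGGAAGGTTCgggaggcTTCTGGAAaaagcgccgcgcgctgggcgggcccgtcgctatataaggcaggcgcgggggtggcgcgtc
HSPD1: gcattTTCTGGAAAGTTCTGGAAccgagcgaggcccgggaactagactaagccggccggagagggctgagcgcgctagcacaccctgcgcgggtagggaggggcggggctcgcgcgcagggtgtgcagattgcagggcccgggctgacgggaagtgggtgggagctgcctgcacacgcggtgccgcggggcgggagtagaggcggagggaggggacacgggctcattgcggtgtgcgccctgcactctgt
DNAJA4: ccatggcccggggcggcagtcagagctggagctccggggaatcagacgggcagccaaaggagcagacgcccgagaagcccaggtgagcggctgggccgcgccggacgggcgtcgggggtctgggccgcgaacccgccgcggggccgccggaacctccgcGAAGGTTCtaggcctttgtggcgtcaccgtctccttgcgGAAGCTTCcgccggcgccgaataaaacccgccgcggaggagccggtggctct

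Over 300 bp, from 250 bases before to 50 after the TSS and on both strands, either form of this 2-unit element occurred at 27 of 81 members (33.3%) and at 11.0% of all protein-coding promoters. The 3-unit forms, GAANNTTC followed by NNGAA or TTCNNGAA followed by NNTTC, each contain a pair of overlapping 2-unit matches and occurred at 7 members (8.64%) and at 0.362% of all promoters. Those 7 were DNAJA1, DNAJB6, HSP90AA1, HSPA6, HSPA8, HSPD1 and HSPH1, and all had an LSD1 peak. Among all genes, these 7 included, 34 of the 72 promoters with a 3-unit match had one (47.2%). The compared sets differ in class, since all 7 members but only 33 of the 72 promoters are CpG-rich. In HSPA8 the 3-unit matches begin 230 and 55 bases before the TSS. Of the members, 22 of 27 with a 2-unit match had a peak (81.5%), and so did 42 of 54 without one (77.8%). Among all promoters with a 2-unit match 45.0% had a peak. CpG-rich promoters made up 22 of the 27 members with this match and 861 of the 2180 promoters with it. The CCAAT box was found at 38.3% of members and 36.0% of all promoters, and TATAAA at 12.3% and 9.62%. A match describes the sequence and is not a bound site.

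At the inducible HSP70 genes the peaks ended shortly after the start. The HSPA1A peak reached 1403 bp upstream and 374 bp downstream of the TSS, the HSPA1B peak 1371 bp and 388 bp, and the HSPA6 peak 988 bp and 108 bp. The peaks covered 15.6% and 4.63% of the HSPA1A and HSPA6 bodies. HSPA1B, at 18.4%, included 75 bp of a weak peak at its other end. These genes are near copies of each other, and the aligned 250 bases before HSPA1A and HSPA1B are 93.6% identical. Of the 32-base words in the 1 kb downstream of the TSS, 21.1% occur once in the reference for HSPA1A, 21.0% for HSPA1B and 26.5% for HSPA6, against 95.6%, 95.6% and 67.2% in the 1 kb upstream. The sources used here do not say how reads with several matches were handled, and the part of this in the shape of the peaks was not tested.

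Peaks at the remaining HSP70 and HSP110 genes scored below that of HSPA6. HSPA9, the mitochondrial HSP70 mortalin, scored 693.05 and had 4 further peaks on its body. HSPA2, the testis-enriched HSP70, scored 739.57, HSPA13 624.64, HSPA4L 526.55, HSPA4 469.08 and HSPA14, a ribosome-associated HSP70, 290.81. The divergent paralogs HSPA12A and HSPA12B had no promoter peak. HSPA12A had none on its 179060 bp body either, while HSPA12B had an intronic peak of 1703 bp (chr20:3729751-3731453) with a score of 135.41 that covered 8.34% of its body.

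The HSPD1 and HSPE1 genes, which encode the mitochondrial chaperonin and its lid, are transcribed head to head from starts 539 bp apart. A single peak of 3773 bp covered both (chr2:198362166-198365938, score 1560.04), and counts for HSPD1, HSPE1 and HSPE1-MOB4 alike. Its midpoint lay 512 bp into HSPD1. The DNAJA3 gene, for the mitochondrial J-domain partner of HSPA9, had a peak with a score of 1401.54 (chr16:4474359-4477613).

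The genes of the CCT ring each had a promoter peak. The highest score was at CCT7, with 2077.8 (chr2:73459709-73462851), followed by CCT5 with 1261.19 (chr5:10248696-10252760) and CCT6A with 1020.09 (chr7:56117876-56120554). CCT3 had 673.35 (chr1:156306846-156309694), CCT8 had 552.21 (chr21:30444838-30446805), CCT4 had 538.99 (chr2:62114242-62116570) and CCT2 had 355.98 (chr12:69978865-69980095). Of these 7 subunit genes, CCT2 alone lay below the median of 464.69 over all genes with a promoter peak. Their peaks covered from 4.84% of the body at CCT3 to 57.7% at CCT5. TCP1, the remaining subunit gene, is not a member by its name and scored 1237.65. CCT6B, a testis-enriched copy of CCT6A, had a peak of 1168.66 (chr17:33287577-33289096) that also lies at the start of ZNF830 on the other strand. CCT8L2, a retrogene expressed in testis, had none, and the nearest peak was 491529 bp away.

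**Figure D3:**
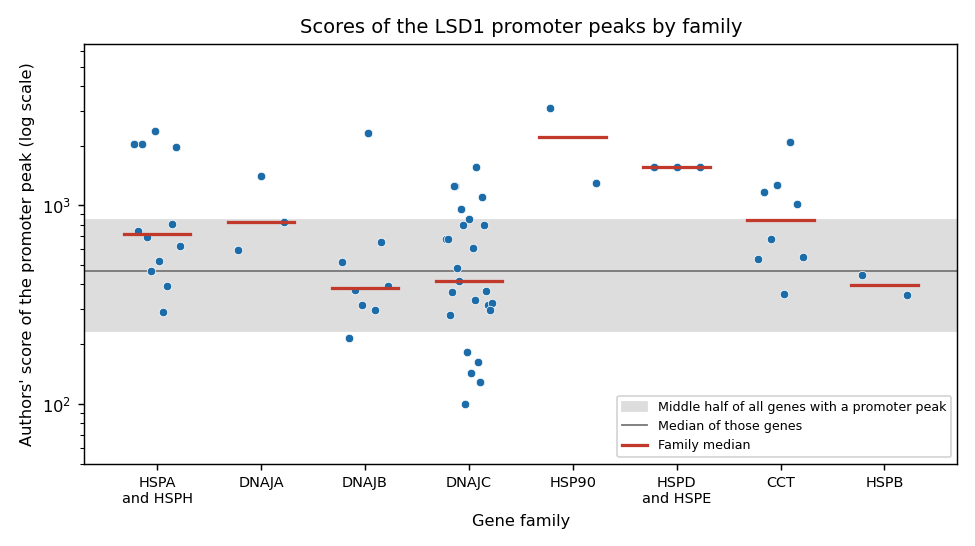
Authors' score of the highest-scoring peak within 1 kb of the TSS (log axis) for each member with a peak except HSPBAP1, by gene family, with red bars at family medians. The grey band runs from 231.7 to 840.52, the quartiles of all 11063 genes with a promoter peak, and the grey line is their median of 464.69; HSP90 and HSPD and HSPE genes lie above the band.

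Over all families the promoter peaks of members had a median score of 639.365 (interval of the median 469 to 804), against 464.69 for all genes with a promoter peak. At CpG-rich promoters the median was 676.21 in members and 494.77 in all genes with a peak. At CpG-poor promoters it was 333.3 in the 11 members with a peak, below the 354.07 of all such genes. Of the 64, 22 reached the upper quartile of all such genes (34.4%, against 25.0%) and 19 reached 1000 (29.7%, against 19.0%). All 19 had CpG-rich promoters, as did 82.3% of all genes with such a score. With each shared peak counted once, the median was 601.605 over 60 peaks of members and 444.78 over 9611 peaks of all genes. No interval was computed for that setting. The interval given above enters shared peaks more than once, and its lower end of 469 is close to 464.69. HSP90AA1 alone reached 3100, against 2.08% of all genes with a promoter peak. Median peak width was 2103.5 bp in members and 1955 bp in all genes with a promoter peak. Midpoints lay downstream of the TSS in 57.8% of members and 58.0% of all genes with a promoter peak.

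The J-domain genes spanned the widest range of scores. Median scores were 822.55 for DNAJA, 382.25 for DNAJB and 416.56 for DNAJC, the last 2 below the median of all genes with a promoter peak. DNAJC9, a J-domain protein that binds histones, lay under the widest peak of the group at 10793 bp (chr10:75005748-75016540, score 1558.6), centred 4131 bp upstream of its TSS. DNAJC25 and its readthrough shared a peak of 1249.77. DNAJC10, the disulfide reductase ERdj5, scored 1107.32 and DNAJC27 958.94. The lowest scores were at DNAJC6, the neuronal clathrin-uncoating factor auxilin (99.45), DNAJC12 (128.83), DNAJC18 (143.27), DNAJC1 (161.93) and DNAJC21, a ribosome biogenesis factor (182.34). The mitochondrial import factor DNAJC19 had a peak of 366.12, and its relative DNAJC15 had none.

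Of the 17 members without a promoter peak, 13 had CpG-poor promoters (76.5%), near the 70.7% of all genes without one. In the list of testis-restricted genes, 2 of the 9 protein-coding ones had a promoter peak, HSPA1L and CCT6B, against 55.6% of all genes. Both have CpG-rich promoters, and the other 7 are CpG-poor, a class in which 27.7% of all genes had a peak. HSPA1L and CCT6B stand head to head with HSPA1A and ZNF830 and share a peak with them. DNAJB7, DNAJB8, DNAJB13, DNAJC5B, DNAJC5G, HSPB9 and CCT8L2 had none. In the list of muscle-restricted genes, HSPB2, HSPB3 and HSPB7 had none and HSPB6 had a peak of 352.84. All of these have CpG-poor promoters. HSPB8, a broadly expressed small heat shock protein that works with BAG3, also had none, with the nearest peak 117347 bp from its TSS. The remaining members without a peak were DNAJA4, DNAJC15, DNAJC22, HSPA12A, HSPA12B and HSPB2-C11orf52, of which the first 4 had CpG-rich promoters. Distances from the TSS to the nearest peak in the 17 ran from 4440 bp at DNAJB7 to 750867 bp at DNAJC15, with a median of 41401 bp. The median share of unique 32-base words in the windows of these 17 genes was 99.3%, against 98.5% in the 64 with a peak. HSPB2-C11orf52 had no promoter peak but peaks over 10.1% of its body.

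Some members share a promoter region with a gene on the other strand. A protein-coding TSS on the other strand within 1 kb upstream was found at 14 members (17.3%) and at 9.44% of all genes. Of these 14, 12 had a promoter peak (85.7%), against 94.3% of all genes so arranged. The 2 without were HSPB2, whose start lies 964 bp from that of the lens and muscle chaperone CRYAB, and its readthrough. CRYAB had no promoter peak either. Of the 67 members with no such partner, 52 had a peak (77.6%), against 51.6% of all such genes. With a CpG-rich promoter, the counts were 11 of 11 with a partner, against 96.6% of all such genes, and 42 of 46 without one, against 74.2%. The median score was 1214.93 in the 12 members with a partner and a peak, and 580.77 in all such genes. These 12 members hold 9 distinct peaks, and with each counted once the median was 1020.09 in members and 573.19 in all such genes.

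**Figure D4:**
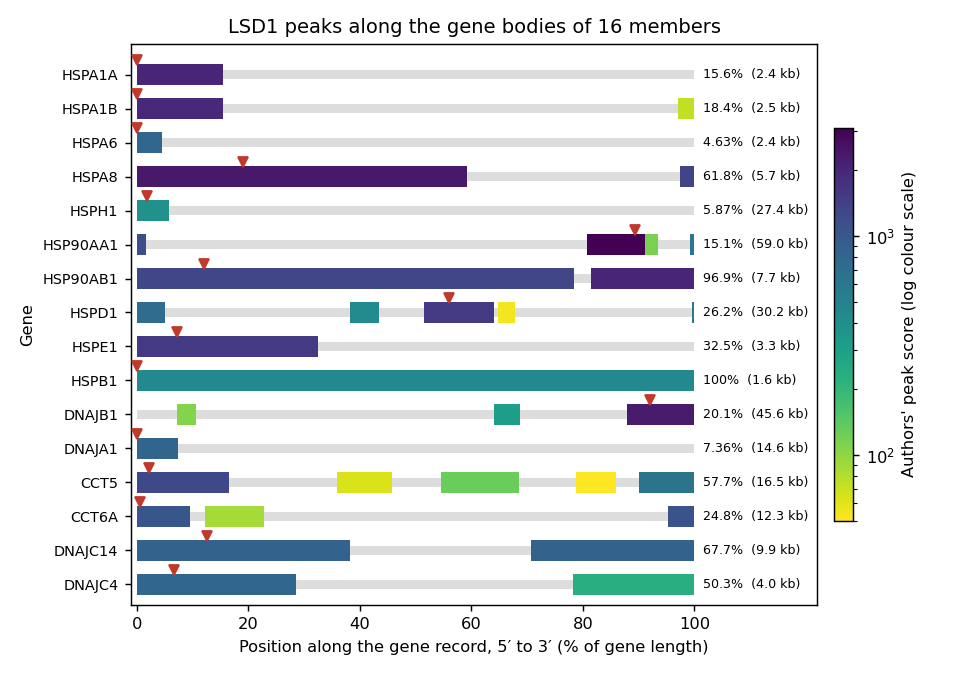
LSD1 peaks along the gene records of 16 members, 5′ to 3′, as percent of gene length, with bars coloured by the authors' score on a log colour scale and a red triangle at the canonical TSS. The share of bases under peaks and the gene length stand at the right, from 4.63% at HSPA6 to 100% at HSPB1.

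Peaks covered a median of 5.93% of the gene body in members (interval of the median 4.25 to 8.34) and 1.34% in all genes. Members are shorter, with a median gene length of 21920 bp against 27614 bp. Among genes with CpG-rich promoters the median share was 7.36% in members and 2.88% in all. Without the 1 kb beside the TSS the median was 1.02% in the 79 members that extend beyond it and 0.0% in all genes. A peak touched the body of 66 members (81.5%), against 61.9% of all genes, and no base was covered in 15 members (18.5%), against 38.1% of all genes. At least 50% was covered in 6 members (7.41%), close to the 6.53% of all genes. These were HSPB1 (100%), HSP90AB1 (96.9%), DNAJC14 (67.7%), HSPA8 (61.8%), CCT5 (57.7%) and DNAJC4 (50.3%). All 6 are short genes, with CCT5 the longest at 16461 bp. HSP90AB1 was spanned by its promoter peak and a second, higher-scoring one over its 3′ end (chr6:44220194-44226184, score 2015.54). That second peak also lies within 1 kb of a start of SLC35B2. CCT5 carried 5 separate peaks, of which the weakest scored 50.54. HSP90AA1, whose gene record of 58958 bp includes a distant alternative start, had 4 peaks, one of them at that start (score 1180.98), near which WDR20 also begins. The midpoint of that peak lies 52891 bp upstream of the canonical start.

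Beyond the promoter windows, 29 members had further peaks on their bodies, 46 distinct peaks in all. Of these, 16 lay within 1 kb of a start of another protein-coding gene (median score 509.83), 7 within 1 kb of an alternative start of the member alone (median 86.94), and 23 near no protein-coding start (median 106.72). DNAJB4 was an example of the first kind, with a peak of 1420.32 at the starts of FUBP1 and GIPC2 and at an alternative start of its own.

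A separate peak, with no protein-coding start within 1 kb, covered the 3′ end of the canonical transcript at 9 members (11.1%), against 5.48% of all genes. Among genes with a promoter peak the values were 9 of 64 members (14.1%) and 8.72%. The 9 genes were HSPA8 (chr11:122924849-122928348, score 1325.88), CCT5 (646.14), HSP90AA1 (620.3), HSPD1 (605.46), HSPA9 (536.1), DNAJB12 (498.91), DNAJC11 (110.31), CCT8 (84.93) and HSPA1B (73.29). The HSPA8 peak is 3500 bp wide and lies mostly beyond the gene. This feature was looked for after the peaks were seen, and starts of non-coding genes were not considered. No interval was computed for these shares, which rest on 9 members.

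Other genes of the chaperone network, given from lists, had promoter peaks at 48 of 53 (90.6%), against 55.6% of all genes. Where the promoter was CpG-rich the count was 44 of 46, against 77.1% of all such genes. The 5 without were CRYAA, CRYAB, HSF1, HSF4 and HSF5, though HSF4 had a peak within 1 kb of another of its starts. By list, members included, promoter peaks were at 8 of 10 HSP70 genes other than HSPA9 and the endoplasmic reticulum gene HSPA5, 3 of 3 HSP110 genes, 8 of 8 CCT ring genes, 17 of 18 heat-inducible genes and 2 of 9 small heat shock genes. Co-chaperones of HSP70 and HSP90 had peaks at 20 of 20. Prefoldin genes had 6 of 6, the mitochondrial list 11 of 11 with 4 members among them, and the endoplasmic reticulum list 16 of 16, also with 4 members. All genes of the co-chaperone, mitochondrial and endoplasmic reticulum lists have CpG-rich promoters. Of the heat shock factor list, HSF2 (276.58) and HSBP1, a negative regulator (83.12), had a peak. The nearest peak to the HSF1 start was 10184 bp away.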

How the data were processed

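LSD1 ChIP-seq and input DNA of PC-3M-luc cells were measured in 1 library each. Per the labels' protocols, reads came from a HiSeq 2000 instrument and were mapped to hg19 with bowtie 2, while MACS 1.41 and Bowtie2 are listed per the submitters' processing notes, with builds hg19 and mm10 (mm10 was not used here). The sources used here give no caller settings, duplicate handling, threshold or read numbers, and depth is unknown. The authors' deposited list holds positions and a score per peak, which ranges from 50 to 3226.07 and was read, from its values alone, as the caller's transformed p. The list was taken as LSD1 called against input.

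Genes and canonical TSSs came from GENCODE 44 mapped to GRCh37, whose chromosome ends no peak exceeds. Of 20163 protein-coding genes, 282 without a canonical TSS were left out, none of them a member. Coordinates are 1-based. Members, lists and named genes were chosen with earlier results of these data known: the heat-inducible, HSP90, HSPD, HSPE and CCT genes, the 10 highest scores and the 5 largest body shares in full, others by call. The promoter sequences, the transcript-end peaks, and other named genes such as TCP1, HSF2 and HSBP1 were chosen after their values were seen. Where several peaks met a window, the highest score was used. Medians carry order-statistic intervals at 95%. Counting was checked against a direct count on simulated peaks at 2000 genes. Tools were scipy 1.17.1, pandas 2.3.3, numpy 2.4.6, numba 0.67.0 and matplotlib 3.10.9 under Python 3.11.15. Alternatives changed the score minimum, window, overlap rule, start site, wide peaks and membership.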

Additional observations from a re-analysis of the deposited data

How the results depend on the processing

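No paired analysis was possible because the labels give 1 LSD1 library and 1 input library. The count of 64 members was 59 when low-scoring peaks under the median were dropped (43.6% of all genes), 56 with the peak midpoint within 1 kb (50.2%) and 65 with a window of 5 kb (58.5%), and stayed within that range for a score of at least 100, a window of 500 bp, a peak over the TSS, any TSS and removal of the widest 1% of peaks. Without the readthrough genes and HSPBAP1 it was 61 of 77. The midpoint criterion dropped DNAJB1, DNAJC5, DNAJC9, HSP90AA1, HSP90AB1, HSPB1, HSPE1 and HSPE1-MOB4, whose peaks cover the TSS but are centred further off. The body share moved to 1.02% without the 1 kb beside the TSS, by construction. Counting each shared peak once, an alternative chosen after seeing the data, gave a median score of 602 against 639. This and the other 13 alternative values stayed within 1.5 times or within the interval of the median. Calls of single members changed in 16 cases and held in 709. Depth is unknown, and the lowest listed score is 50.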
